A study of Homo sapiens with 8 samples.

Results

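The genes encoding the proteins of the cytosolic ribosome were examined as a set in the human bladder cancer cell line 5637 after stable knockdown of TRMT61A. They were chosen by name: every gene of the mRNA count table whose symbol is RPL or RPS followed by a number, with an optional paralog suffix, or RPLP0 to RPLP2. The rule found 82 of 16547 genes, 51 of the large and 31 of the small subunit, and it used no measured value. Of these, 80 had enough reads to be tested, and the paralogs RPL3L and RPL39L did not.

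The study measured RNA level and N1-methyladenosine (m1A), a methyl mark on adenosine, in mRNA and long noncoding RNA (lncRNA). The knockdown group, labelled TRMT61A knockdown, and the control group, labelled WT, each had 2 RNA samples of the same line. Sample titles carry SH for knockdown and NC for control, and do not spell these letters out. Every sample was sequenced as input and after pulldown by an antibody to m1A. The way the knockdown was made and the number of clones behind each group are not given in the labels. Nothing in them says that replicates came from separate cultures, so p-values cover only the spread among these samples, and that spread may be technical.

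Ribosomal proteins assemble with ribosomal RNA into a large subunit, which forms peptide bonds, and a small subunit, which reads the mRNA. As background, their mRNAs belong to the TOP class: they begin with a C followed by an unbroken run of pyrimidines, and through this start the mTORC1 kinase and the RNA-binding protein LARP1 control their translation together. TRMT61A is the catalytic subunit of the enzyme that places m1A in the T loop of cytosolic tRNAs, and the same enzyme also methylates some mRNAs.

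The input libraries held 38989448 and 37912238 mRNA counts in knockdown samples 1 and 2, against 30046283 and 42177927 in control samples 1 and 2. TRMT61A itself measured 13.4 and 6.71 CPM, counts scaled to the depth of the library, in knockdown inputs 1 and 2, against 19.8 and 14.7 CPM in control inputs 1 and 2, so both knockdown values lay below both controls but the gene did not pass the test (log2 fold change -0.78 ± 0.29 SE, adjusted p = 1.00 by the quasi-likelihood test of edgeR, with Benjamini-Hochberg adjustment over 13362 genes). Of 18 urothelial and epithelial marker genes, 13 were tested and their summed level was 5211 and 5495 CPM in knockdown, against 4873 and 5624 CPM in control. The uroplakins UPK1A, UPK1B, UPK2 and UPK3A, which define differentiated urothelium, were at 0 or below 0.5 CPM in every input. The 17 markers of blood, endothelial, stromal and muscle cells together made 34.5 and 50.4 CPM in knockdown inputs 1 and 2, against 41.1 and 45.6 CPM in control inputs 1 and 2, most of it from COL1A1. Both PTPRC and CD3E, which define blood cells, were at or below 0.25 CPM in every input.

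The TOP start could be read for 65 of the 82 genes, from RefSeq sequence on GRCh38.p14. In the lines below the first 10 bases precede the listed transcription start and the next 20 follow it, on the gene's strand, with the unbroken run of C and T from the start in capitals. The first 6 genes are shown because they are among those with the smallest p in the comparison of RNA level. RPL27 and RPS29 are the exceptions among them at the listed start, since neither begins with C there. Only 1 listed start was read per gene, so this does not show that either mRNA lacks a TOP start.
RPLP2: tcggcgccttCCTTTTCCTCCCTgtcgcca
RPS6: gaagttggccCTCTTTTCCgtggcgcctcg
RPL36: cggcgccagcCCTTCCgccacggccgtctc
RPL12: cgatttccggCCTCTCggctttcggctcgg
RPL27: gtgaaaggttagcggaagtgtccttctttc
RPS29: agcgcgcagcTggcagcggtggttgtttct
Next stand RPS14, RPL35 and RPL22, which have an m1A peak that begins close to the start in the lncRNA lists.
RPS14: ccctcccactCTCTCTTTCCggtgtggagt
RPL35: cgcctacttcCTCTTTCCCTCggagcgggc
RPL22: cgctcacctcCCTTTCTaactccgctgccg
The last 4 are paralogs, of which RPL22L1 alone begins with C.
RPL22L1: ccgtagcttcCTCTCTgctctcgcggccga
RPS27L: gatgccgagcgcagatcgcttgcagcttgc
RPL26L1: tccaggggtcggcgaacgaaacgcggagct
RPL7L1: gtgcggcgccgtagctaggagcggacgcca
On the plus strand the windows lie at chr11:809957-809986 for RPLP2, chr19:5690285-5690314 for RPL36, chr17:42998409-42998438 for RPL27, chr5:172958719-172958748 for RPL26L1 and chr6:42879606-42879635 for RPL7L1. On the minus strand they lie at chr9:19380217-19380246 for RPS6, chr9:127451387-127451416 for RPL12, chr14:49598691-49598720 for RPS29, chr5:150449720-150449749 for RPS14, chr9:124861938-124861967 for RPL35, chr1:6199576-6199605 for RPL22, chr3:170870176-170870205 for RPL22L1 and chr15:63157458-63157487 for RPS27L. The run from the start was 13 bases long in RPLP2, 9 in RPS6, 11 in RPL35 and 6 in RPL12.

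Across the 65 genes, 46 began with C (70.8%), against 11.3% of all 15843 coding promoters in the same table. A C followed by at least 4 more C or T at the listed start was found in 42 of the 65 (64.6%), against 4.60% of all promoters. A C followed by 5 more C or T, sought from 10 bases before to 15 bases after the start, was in 49 (75.4%, against 20.1%). The motif CCGGAAG, searched on both strands from 250 bases before to 30 bases after the start, was in 23 of the 65 (35.4%) and in 13.9% of all promoters. By the same search AAGATGGC was in 5 (7.69%, against 3.17%), GGGCGG in 34 (52.3%, against 57.5%) and TATAAA in 6 (9.23%, against 9.46%). Some motifs can overlap each other, and a match is only a description of these letters.

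The ribosomal protein mRNAs had slightly lower values in knockdown as a set, but no single gene passed the test, and the low values came from 1 of the 2 knockdown inputs. Of 80 tested genes, 0 passed an adjusted p of 0.05 in the same edgeR test, where 5 of 13362 genes did (0.0374%). These 5, named because the count is small, were CNTNAP2, LY6E, NMRAL1, HMOX2 and TJP1. The log2 fold change of knockdown over control was below 0 for 77 of the 80 (96.2%), against 50.2% of all tested genes. Their median log2 fold change was -0.12, with quartiles of -0.19 and -0.07, against -0.00 for all tested genes.

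At an unadjusted p under 0.05, 7 of the 80 were lower in knockdown (8.75%, against 1.58% of all tested genes) and 0 were higher (against 1.72%). DESeq2 called 24 genes after adjustment (0.145%) and limma-voom 3 (0.0225%), and 0 of the ribosomal protein genes passed in either. Unadjusted, 9 of 82 had p under 0.05 in DESeq2 (against 2.27% of all genes) and 7 of 80 in limma-voom (8.75%, against 3.10%). In 25 of the 80 both knockdown inputs lay below both control inputs (31.2%, against 14.7% of all tested genes), in 1 both lay above (1.25%, against 15.6%), and in 54 the groups overlapped. The 1 above both controls was RPL7L1. These RNA levels are from bulk samples, in which fewer cells of a kind and less RNA per cell cannot be told apart.

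**Figure D1:**
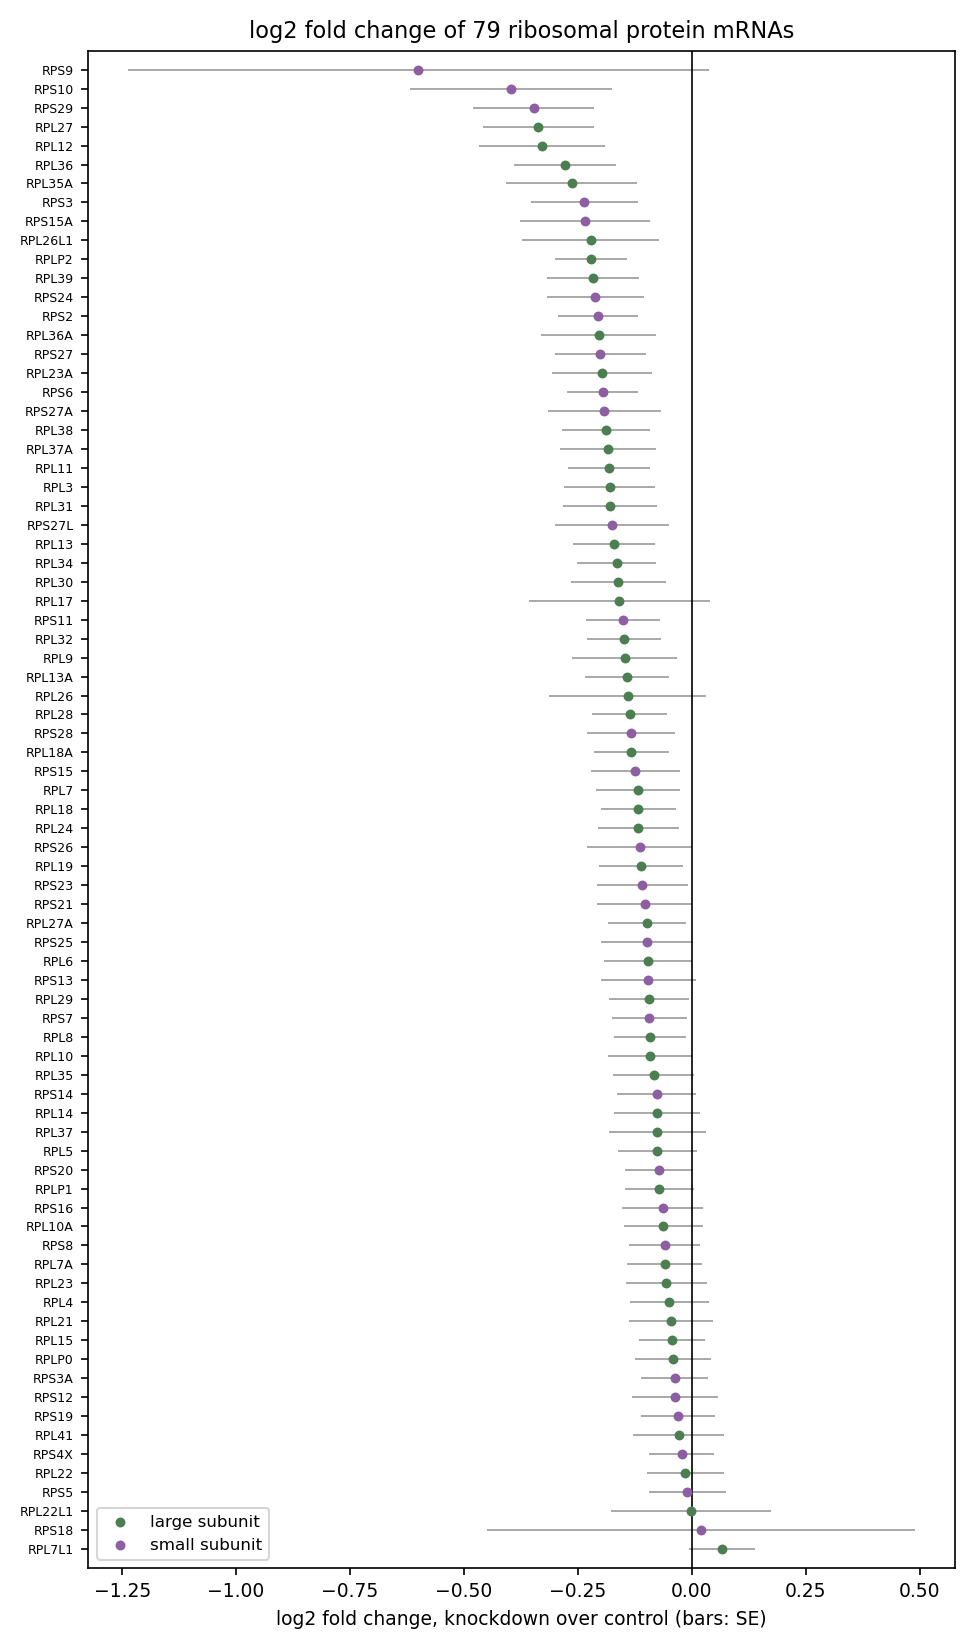
Each dot is the log2 fold change of 1 ribosomal protein mRNA, for 79 of the 80 tested, knockdown over control, with bars of 1 SE from edgeR's fit, ordered from the lowest to the highest and coloured by subunit. Of these, 77 lie left of 0, most within 0.25 of it, and large and small subunit genes are mixed along the whole order.

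The median was -0.12 for 49 large subunit genes and -0.11 for 31 small subunit genes. It was -0.10 for the 40 genes of higher and -0.15 for the 40 of lower mean CPM. Over 2579 other genes of at least 100 mean CPM the median was -0.00. Over 42 genes with a C and 4 more pyrimidines at the listed start the median was -0.11, and over 23 genes with another start it was -0.13.

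The proteins of the P-stalk, which recruits elongation factors to the large subunit, are RPLP0, RPLP1, RPLP2 and RPL12 at its base. RPLP2, with the smallest p of the set, measured 181 and 165 CPM in knockdown inputs 1 and 2, against 196 and 207 CPM in control inputs 1 and 2. Both knockdown inputs were below both controls, and its log2 fold change was -0.22 ± 0.08 (SE, unadjusted p = 0.0216, edgeR). RPL12 measured 355 and 256 CPM in knockdown, against 407 and 361 CPM in control. Again the groups did not overlap, but knockdown input 1 lay just under control input 2 and knockdown input 2 far below it (-0.33 ± 0.14, unadjusted p = 0.0428, edgeR). RPLP0 measured 1225 and 1079 CPM in knockdown, against 1142 and 1231 CPM in control, and RPLP1 measured 571 and 537 CPM in knockdown, against 557 and 606 CPM in control. Both of these overlapped between the groups, with log2 fold changes of -0.04 ± 0.08 and -0.07 ± 0.08.

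RPL5 and RPL11 form a particle with the smallest ribosomal RNA of the large subunit and, when free, bind MDM2, the inhibitor of p53. RPL11 measured 198 and 174 CPM in knockdown, against 223 and 199.8 CPM in control. Knockdown input 1 was thus almost level with control input 2, and the log2 fold change was -0.18 ± 0.09. RPL5 measured 621 and 534 CPM in knockdown, against 619 and 598 CPM in control, and the groups overlapped (-0.08 ± 0.09). Of 12 genes of ribosomal stress and p53, 7 had log2 fold changes below 0 and 0 passed the test. The p53 target CDKN1A, which encodes a cell cycle inhibitor, measured 41.7 and 45.1 CPM in knockdown, against 36.7 and 38.1 CPM in control (0.21 ± 0.09, unadjusted p = 0.0502, edgeR). SESN2, a stress-induced inhibitor of mTORC1, measured 13.9 CPM in both knockdown inputs, against 19.2 and 15.2 CPM in control (-0.31 ± 0.15).

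Genes of the large subunit outside the stalk gave 3 of the remaining low p-values. RPL27 measured 125 and 98.1 CPM in knockdown, against 152 and 130.1 CPM in control (-0.34 ± 0.12, unadjusted p = 0.0224, edgeR). RPL36 measured 74.4 and 58.8 CPM in knockdown, against 83.1 and 78.7 CPM in control (-0.28 ± 0.11). In both genes the 2 knockdown inputs were below the controls, and knockdown input 2 was the lowest. RPL39, which lines the tunnel through which the new protein leaves, measured 496 and 403 CPM in knockdown, against 540 and 505 CPM in control (-0.22 ± 0.10, unadjusted p = 0.0620, edgeR). Over 9 tested genes of the exit tunnel the log2 fold changes ran from -0.22 to -0.01.

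The most read genes of the set by CPM, a scale that counts long transcripts more often than short ones, were RPL32 and RPL7A. RPL32 measured 1483 and 1285 CPM in knockdown, against 1552 and 1517 CPM in control (-0.15 ± 0.08). RPL7A measured 1444 and 1249.8 CPM in knockdown, against 1421 and 1386 CPM in control (-0.06 ± 0.08). RPL32 did not overlap between the groups and RPL7A did, with knockdown input 1 the highest of all 4. Levels were not compared between genes per length, because no transcript lengths were used here.

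In the small subunit, RPS29, a zinc-binding protein of its head, measured 88.5 and 64.4 CPM in knockdown, against 94.6 and 99.7 CPM in control. Knockdown input 2 stood apart from the other inputs (-0.35 ± 0.13, unadjusted p = 0.0292, edgeR). RPS6, the substrate of the S6 kinases downstream of mTORC1, measured 419 and 397 CPM in knockdown, against 489.5 and 445 CPM in control. Here the knockdown inputs lay closer to each other than the controls did, and the log2 fold change was -0.20 ± 0.08 (unadjusted p = 0.0334, edgeR). RPS2, at the entrance of the mRNA channel, measured 485 and 417 CPM in knockdown, against 504 and 536 CPM in control (-0.21 ± 0.09, unadjusted p = 0.0458, edgeR). RPS3, beside it in the mRNA channel, measured 872 and 682 CPM in knockdown, against 975 and 856 CPM in control, and the groups overlapped (-0.24 ± 0.12). RPS3A measured 879 and 799 CPM in knockdown, against 863 and 859.6 CPM in control, with overlapping groups and a log2 fold change of -0.04 ± 0.07.

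The genes with the 2 largest fold changes were thinly read. RPS9 had 20 and 8 counts in knockdown inputs 1 and 2, against 15 and 25 in control inputs 1 and 2, and its log2 fold change of -0.60 ± 0.64 was smaller than its own error. RPS10 had 186 and 152 counts in knockdown, against 175 and 238 in control (-0.40 ± 0.22). RPS10 and the genes RPL17 and RPL36A share their locus with a readthrough gene in RefSeq, so that reads may be split between 2 names. RPS9, RPS18, RPL3L and RPL39L averaged fewer than 100 counts, and for RPS9 and RPS18 this is far under the level of most core genes of the set. Leaving out genes of low count or with a readthrough gene, a choice made after seeing the data, left 74 tested genes with a median of -0.12. A further source of uncertainty is shared by the whole set, since 77 of the 82 have processed copies named as pseudogenes in RefSeq (median 15.5, at most 137 for RPL21), and the sources used here do not say how reads that match several copies were counted.

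Of 4 tested paralogs, which resemble a core ribosomal protein, 3 had log2 fold changes below 0. RPL7L1 measured 213 and 201.3 CPM in knockdown, against 201.0 and 195 CPM in control (0.07 ± 0.07). RPL22L1, which can take the place of RPL22, measured 51.5 and 34.4 CPM in knockdown, against 46.8 and 39.3 CPM in control, so that the knockdown inputs enclosed the controls (-0.00 ± 0.18). RPS27L, a known p53 target, measured 17.5 and 16.6 CPM in knockdown, against 19.6 and 19.0 CPM in control (-0.18 ± 0.12). The groups did not overlap for RPS27L or for RPL7L1. RPL26L1 measured 16.9 and 13.7 CPM in knockdown, against 18.5 and 17.3 CPM in control (-0.22 ± 0.15). RPL3L, the muscle paralog, had 4 and 0 counts in knockdown and 4 and 0 in control, and RPL39L, known from male germ cells, had 0 in both knockdown inputs and 0 and 1 in control.

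Each paralog was also set against its core gene within a library. RPL7L1 had 25.7 and 28.3 reads per 100 of RPL7 in knockdown, against 22.8 and 24.7 in control, the only pair of 4 whose groups did not overlap (two-sided exact permutation p = 0.333, the smallest that 2 against 2 samples allow). RPL22L1 had 23.7 and 17.9 reads per 100 of RPL22 in knockdown, against 21.9 and 19.6 in control. RPS27L had 27.7 and 31.1 reads per 100 of RPS27 in knockdown, against 28.0 and 29.5 in control. RPL26L1 had 105 and 106 reads per 100 of RPL26 in knockdown, against 103 and 121 in control. In these last 3 pairs p was 1 by the same exact test. RPL26 itself was low for a core gene, at 16.2 and 12.9 CPM in knockdown, against 17.9 and 14.3 CPM in control. The median over the whole set was 279.75 and 237.35 CPM in knockdown, against 283.7 and 280.5 CPM in control. RefSeq names 36 pseudogenes of RPL26 and 0 of RPL26L1. Whether RPL26 was undercounted was not tested, so its ratio does not rank the levels of the pair.

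The 2 knockdown libraries differed from each other. Each gene's log2 CPM was set against its own mean over the 4 inputs. The median of this deviation over the 80 genes was 0.06 in knockdown input 1 and -0.18 in knockdown input 2, against 0.09 in control input 1 and 0.04 in control input 2. Knockdown input 2 was the lowest of the 4 for 78 of the 80 genes, where it was the lowest for 30.4% of all tested genes. Knockdown input 1 was the lowest for 0 of the 80 and the highest for 21. TRMT61A was also lowest in knockdown input 2, at 6.71 CPM, against 13.4 CPM in knockdown input 1. It measured 19.8 and 14.7 CPM in control inputs 1 and 2. A trait of that library and a stronger knockdown in it cannot be told apart here.

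**Figure D2:**
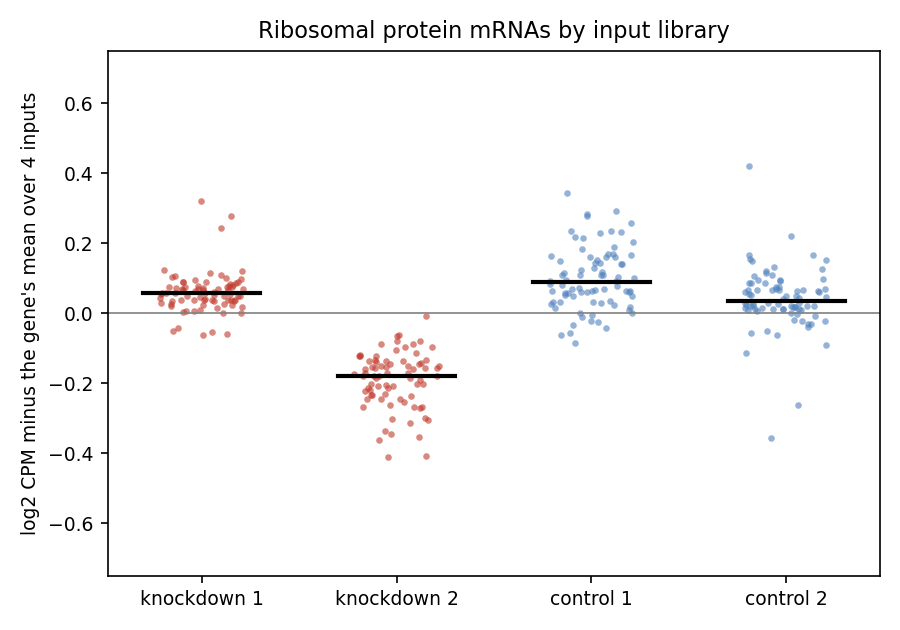
Each point is 1 of the 80 tested ribosomal protein mRNAs in 1 input library, as its log2 CPM minus its mean over the 4 inputs, and the black line is the median. The cloud of knockdown input 2 is centred at -0.18 while that of knockdown input 1, at 0.06, lies among the controls at 0.09 and 0.04. A further 2 genes have a point beyond the axis.

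Accordingly, the comparison depended on which library was left out. Without knockdown input 2 the median log2 fold change was -0.01, and 43 of 80 genes lay below 0 (53.8%, against 51.2% of all tested genes). Without knockdown input 1 the median was -0.25, 79 of 80 lay below 0, and 9 passed the adjusted test as lower (11.2%, against 0.519% of all tested genes), a fit in which the lone knockdown library is assumed to vary like the controls. The 9 were RPL12, RPS29, RPL27, RPS3, RPL35A, RPL39, RPL36, RPL23A and RPL3, with adjusted p of 0.00110 for RPL12 and 0.00355 for RPS29 (edgeR). Without control input 1 the median was -0.10, and without control input 2 it was -0.14. Set against the control of the same number, the median was -0.02 for knockdown input 1, where 49 of 80 genes lay below 0, and -0.24 for knockdown input 2, where 78 did. The within-group SD of the set's median log2 CPM was 0.12, as large as the difference between the groups.

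**Figure D3:**
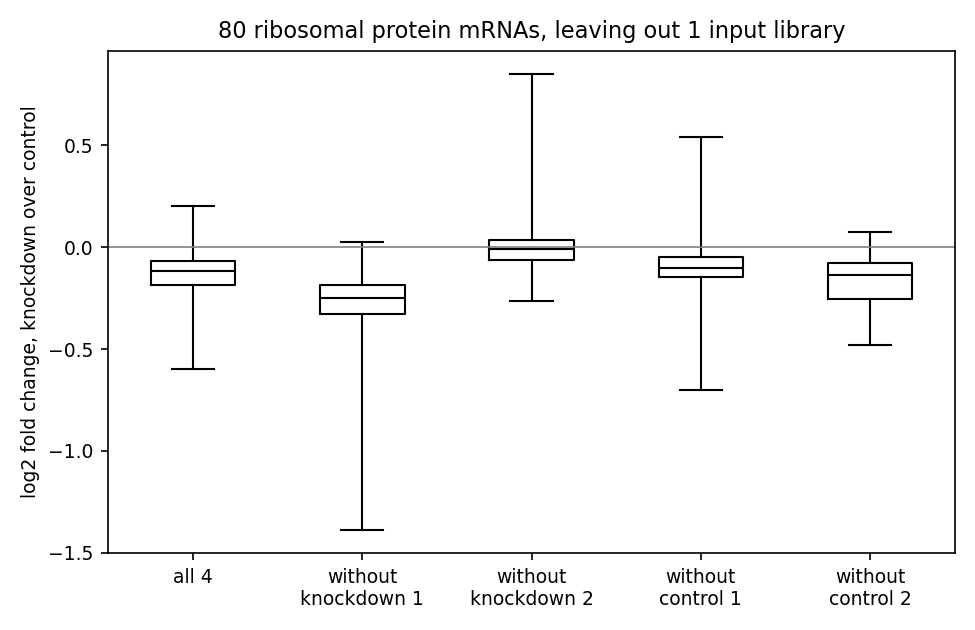
Boxes show the quartiles and median, and whiskers the lowest and highest value, of the log2 fold changes of 80 ribosomal protein mRNAs from edgeR's fit to all 4 inputs and to each set of 3. The median moves to -0.25 without knockdown input 1 and to -0.01 without knockdown input 2.

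The share of all mRNA counts that fell on the 82 genes gave the same order. It was 2.80% and 2.45% in knockdown inputs 1 and 2, against 2.82% and 2.79% in control inputs 1 and 2. Exact binomial 95% intervals, which cover counting error only, were 2.79% to 2.80% in knockdown input 1 and 2.45% to 2.46% in knockdown input 2, against 2.82% to 2.83% in control input 1 and 2.79% to 2.80% in control input 2. Only knockdown input 2 lay outside a narrow band. Means were 2.62% ± 0.246 in knockdown and 2.81% ± 0.0193 in control (SD, n = 2 each), a difference of -0.18 percentage points with a two-sided exact permutation p of 0.667. Large subunit genes held 1.88% and 1.64% in knockdown, against 1.89% and 1.87% in control, and small subunit genes 0.919% and 0.810% in knockdown, against 0.928% and 0.921% in control. Mitochondrially encoded mRNAs, a common sign of RNA quality, held 2.69% and 2.67% in knockdown, against 3.20% and 2.67% in control. Control input 1 was thus the library that stood apart there. With these mRNAs left out of the total, the 82 genes held 2.88% and 2.52% in knockdown, against 2.92% and 2.87% in control. Any part of RNA quality in the result was not tested.

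**Figure D4:**
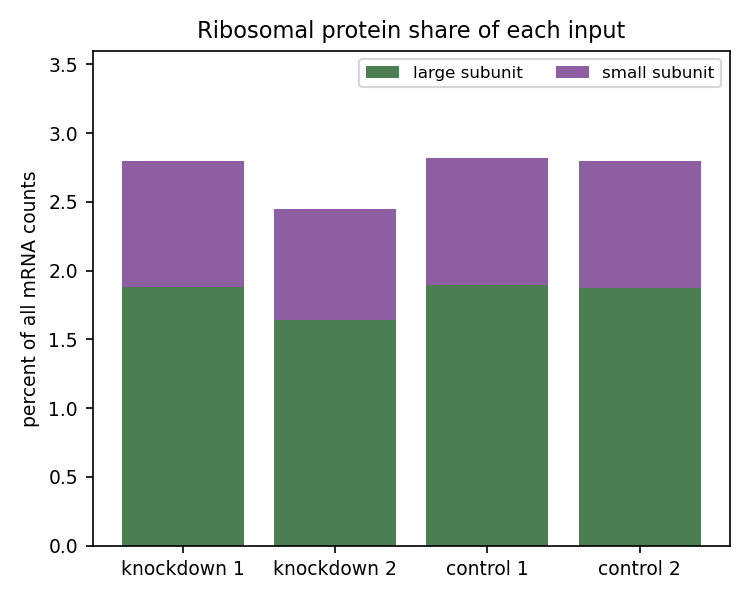
Bars give the percentage of all mRNA counts that fell on large and small subunit genes in each input library, stacked from 0. The total is 2.80% and 2.45% in knockdown inputs 1 and 2, against 2.82% and 2.79% in control inputs 1 and 2.

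Other genes of the ribosome and its production were read from lists of named genes in the same fit, and 0 genes of any list passed the test. The 5 ribosomal proteins with names outside the rule all had log2 fold changes below 0, with a median of -0.12, against 50.2% of all tested genes below 0. Among them RACK1, a scaffold on the small subunit, measured 556 and 457 CPM in knockdown, against 566 and 572 CPM in control (-0.17 ± 0.10). Other TOP mRNAs, mainly translation factors, were below 0 in 9 of 13 cases with a median of -0.03. EEF1D, a subunit of the exchange factor of elongation, went the other way with 18.3 and 11.4 CPM in knockdown, against 7.49 and 9.92 CPM in control (0.77 ± 0.24, unadjusted p = 0.0121, edgeR). It was read far less than the other genes of this list, which were at 159 CPM or more in every input. Whether EEF1D was undercounted was not tested. EIF3F, an initiation factor subunit, measured 178 and 159 CPM in knockdown, against 179 and 188 CPM in control (-0.12 ± 0.08).

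Of 38 ribosome biogenesis factors, 29 had log2 fold changes below 0 and the median was -0.04. SENP3, a nucleolar protease for SUMO, measured 7.61 and 6.21 CPM in knockdown, against 9.37 and 8.55 CPM in control (-0.37 ± 0.19). NOB1, the endonuclease that trims small subunit RNA, measured 36.8 and 33.3 CPM in knockdown, against 38.1 and 40.9 CPM in control (-0.17 ± 0.10). Subunits and factors of RNA polymerases I and III, which make ribosomal RNA, were below 0 in 15 of 22 cases (median -0.06). Their smallest p belonged to RRN3, an initiation factor of polymerase I, whose value of 4.94 CPM in control input 2 stood against 1.11 CPM in control input 1 and against 1.06 and 1.25 CPM in knockdown inputs 1 and 2. POLR2E, a subunit shared by the polymerases, measured 84.1 and 77.4 CPM in knockdown, against 87.0 and 90.05 CPM in control (-0.13 ± 0.08). Dedicated chaperones and importins of ribosomal proteins were below 0 in 10 of 14 cases (median -0.03). Of these, GRWD1 measured 69.6 and 57.6 CPM in knockdown, against 64.2 and 72.4 CPM in control, and NAP1L4 measured 8.82 and 12.8 CPM in knockdown, against 18.0 and 8.58 CPM in control, with overlapping groups in both.

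The regulators of TOP translation were split, with 8 of 17 below 0 and a median of 0.01. EIF4EBP2, a repressor of cap-dependent translation under mTORC1, measured 250.2 and 230.3 CPM in knockdown, against 303 and 260.4 CPM in control (-0.23 ± 0.09, unadjusted p = 0.0342, edgeR). RICTOR, the defining subunit of mTORC2, measured 189 and 209 CPM in knockdown, against 182 and 174 CPM in control (0.16 ± 0.08). The 77 tested genes of mitochondrial ribosomal proteins, which form a separate ribosome, had a median of -0.04, and 49 of 77 were below 0. Their medians within sample numbers were 0.05 for knockdown input 1 over control input 1 and -0.15 for knockdown input 2 over control input 2, and so also lower in knockdown input 2.

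Peaks of m1A were nearly lacking under ribosomal protein names in the authors' mRNA lists. Peaks under these names in the lncRNA lists are given further below. The mRNA lists, called per sample, held 5793 and 3686 peaks in knockdown, against 6701 and 4319 in control. Of these, 0 and 0 stood under a ribosomal protein name in knockdown, against 1 and 0 in control (two-sided exact permutation p = 1). At least 1 peak in any of the 4 lists was thus found for 1 of the 80 tested genes (1.25%), against 6850 of all 13362 tested genes (51.3%). The 1 was a 16-base peak under RPL37A in control sample 1 at chr2:216519332-216519347 on hg38, with the authors' fold enrichment of 2.68 over input and score of 65.05. It lay 15246 bases past the end of RPL37A in RefSeq, and 0 mRNA peaks overlapped the RefSeq span of any of the 82 genes.

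The share was also set beside other genes within limits of level and span. Of 2579 other genes of at least 100 mean CPM, 1526 had a peak (59.2%). The median RefSeq span was 5025 bases for the 80 genes, introns included, and 32212 bases for all tested genes with a span. Of 188 other genes of at least 100 mean CPM and a span of at most 10 kb, 53 had a peak (28.2%). Within the same limits, 1 of 57 ribosomal protein genes had one (1.75%). Level and span were not matched within these limits. Of other genes, 246 of 499 with a C and 4 more pyrimidines at the listed start had one (49.3%), against 5217 of 9915 with another start (52.6%). These shares come from the 4 lists and were not tested across genes. Input reads at the peaks were not used here, and their part in the result was not tested.

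Peaks were also few on the other cytosolic ribosomal proteins and on other TOP mRNAs. The 5 ribosomal proteins outside the rule had 0 genes with a peak, and of 13 other TOP mRNAs only NAP1L1, which encodes a histone chaperone, had one. The share over all tested genes was 51.3%, and the shares below do not take span into account. Of 38 ribosome biogenesis factors, 22 had a peak (57.9%), among them the nucleolar proteins NCL, FBL and DKC1. So did 13 of 17 TOP regulators (76.5%), including LARP1, MTOR and RPTOR. Peaks were also listed for 15 of 22 tested genes of RNA polymerases I and III (68.2%) and for 6 of 14 chaperones (42.9%). Of the 77 mitochondrial ribosomal protein genes, 27 had a peak (35.1%).

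**Figure D5:**
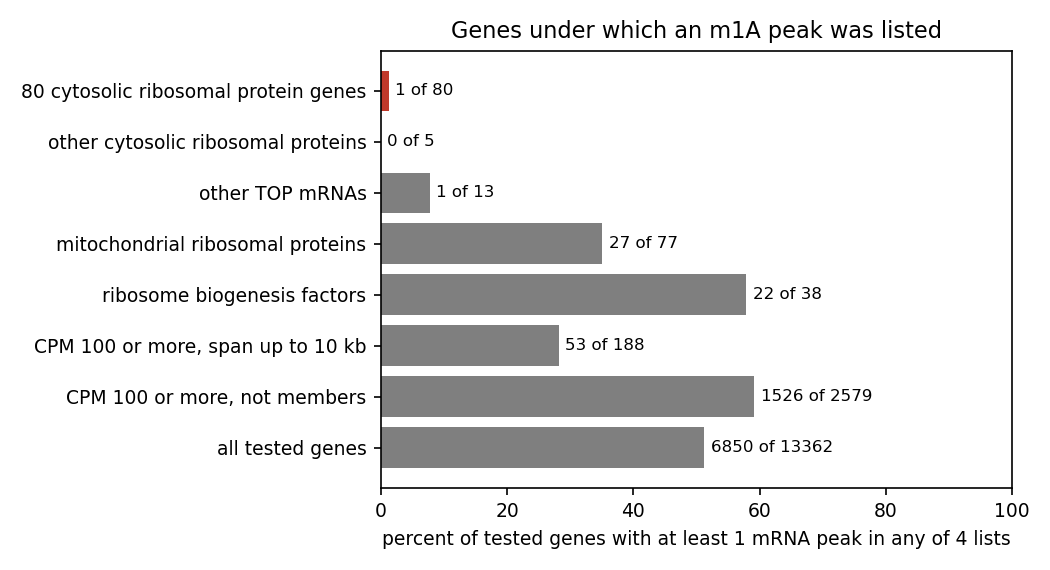
Bars give the percentage of genes in each list with at least 1 m1A peak in any of the 4 mRNA peak lists, with the counts beside them. The share is 1.25% for the 80 ribosomal protein genes and 51.3% for all tested genes, and it is 28.2% for other genes of at least 100 mean CPM and a span of at most 10 kb.

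The lncRNA lists held the few peaks that carry a ribosomal protein name, on noncoding transcripts that overlap exons of the coding gene on its own strand. They numbered 3 and 2 in knockdown, against 3 and 2 in control (two-sided exact permutation p = 1), of 2343 and 1384 peaks in knockdown and 2588 and 1696 in control. Over both kinds of list, 7 of 80 genes had a peak (8.75%), against 56.7% of all tested genes. On these transcripts reads cannot be separated from those of the coding mRNA. In each sample, 0 peaks had the same coordinates in the mRNA list and the lncRNA list. How peaks were allotted between the 2 kinds of list, and its part in the low share in the mRNA lists, was not tested.

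RPS2 had the peak of highest fold, listed at chr16:1964276-1964805 in 3 of the 4 samples. The authors' fold enrichment was 12.87 in knockdown 1, against 7.55 in control 1 and 8.58 in control 2, and knockdown 2 had no peak there. Its scores were 3100 in knockdown 1, against 69.47 in control 1 and 1234.9 in control 2, where 50 was the lowest score listed. RPS14 had a peak near chr5:150449354-150449727 in the same 3 samples, with folds of 3.05 in knockdown 1, against 3.52 in control 1 and 3.55 in control 2. Scores of the RPS14 peak were 95.65 in knockdown 1, against 160.2 in control 1 and 55.32 in control 2. The remaining peaks were each listed in 1 sample: RPL35 in knockdown 1 (fold 3.34), RPS29 in knockdown 2 (5.72), RPL27 in knockdown 2 (2.65) and RPL22 in control 1 (4.69). Scores were 432.41 for RPL35, 53.83 for RPS29, 67.8 for RPL27 and 76.49 for RPL22. At a score of at least 100, the lncRNA lists held 2 and 0 peaks under ribosomal protein names in knockdown, against 1 and 1 in control. A further peak in control 1, which overlapped the edge of the RPL6 span and ran past it, stood under the neighbouring name PTPN11 (4.31).

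The peaks of RPS2, RPS14, RPL35 and RPL22 all began near the gene start. Their far edges lay 550 bases from it in RPS2, 381 to 450 in RPS14, 538 in RPL35 and 715 in RPL22. Their near edges lay 21 bases from the RefSeq gene start in RPS2, 12 in RPS14, 21 in RPL35 and 32 in RPL22, and each near edge was also a boundary of the noncoding transcript in the table, so that the position of the edge is set by that transcript. The windows printed above for RPS14, RPL35 and RPL22 show the start next to these peaks, each with a pyrimidine run of 7 to 11 bases. The other peaks lay farther from the RefSeq gene start, 1480 bases in RPL27 and 12359 in RPS29. In RPS29 the near edge was again a boundary of its noncoding transcript, at chr14:49586351, so that peak began where the transcript does. The RPL27 peak touched no boundary of its transcript. The nearest annotated tRNA gene was at least 1185869 bases away from each named peak.

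The lncRNA table held 168 noncoding transcripts under 73 of the 82 names, which took 0.655% and 0.578% of lncRNA counts in knockdown, against 0.637% and 0.655% in control (two-sided exact permutation p = 0.667). Another 424 transcripts named as ribosomal protein pseudogenes took 1.84% and 1.67% in knockdown, against 1.84% and 1.98% in control (p = 0.333 by the same exact test). In both groups of transcripts knockdown input 2 was the lowest of the 4 inputs, as for the coding genes.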

How the data were processed

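RNA of 4 samples of the line 5637 was measured in 4 input and 4 immunoprecipitated libraries. The deposited tables give, per the file headers, the authors' raw counts of each input, by gene for mRNA and by transcript for lncRNA. Another 8 columns, of normalized values, were left aside. The submitters' processing notes name HISAT2 2.0.4 and HTSeq 0.9.1, along with edgeR, STAR and hg38. The sources used here do not give their roles, the strand setting or the treatment of reads with several matches. Each peak carries, per the file headers, a fold enrichment (a linear ratio, 2 or more in all lists) and a score (50 or more), which is 10 times the negative log10 of the caller's p. Peaks were called in each sample separately. Their starts, counted from 0 in the files, are given here counted from 1.

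The test was edgeR 4.0.16 in R 4.3.3, first tried on simulated data: quasi-likelihood, filterByExpr (min.count 10), TMM, Benjamini-Hochberg with a threshold of 0.05, knockdown over control inputs, no block. CPM were scaled by effective library sizes after TMM. Other tools tried were DESeq2 (1.42.0) and limma-voom (3.58.1). Further alternatives were other scalings and filters, the replicate number as a block, stricter peak scores and leaving out each library. Single values were compared by exact permutation over samples (scipy 1.17.1, Python 3.11.15). Precision is limited by 2 samples per group more than by counting.

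Of the 82 genes, 82 matched RefSeq rows and 65 a RefSeq promoter (GRCh38.p14). Members, gene lists and tests were chosen with earlier results of these data known. Genes given with values in every library, 24 in all, were the 8 of smallest p, the 5 of highest mean CPM, the 4 of largest absolute fold change, the L-named paralogs, the P-stalk proteins, RPL5, RPL11 and RPS6; of other lists, those of smallest p are named. Some genes are counted in the totals but not reported here by name.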

Additional observations from a re-analysis of the deposited data

How the results depend on the processing

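The direction of the set rests on knockdown input 2: leaving out 1 library at a time, the median log2 fold change ran from -0.247 to -0.0109, the number of genes below 0 from 43 to 79, the number past the threshold from 0 to 9, and the number of all mRNAs past it from 11 to 135. Over all genes, 5 mRNAs passed in the fit reported, 24 with DESeq2, 3 with limma-voom and 14 with no filter on low counts, with 0 ribosomal protein genes in each. With the replicate number as a block, 15 mRNAs and 0 ribosomal protein genes passed, 23 of the 80 had an unadjusted p under 0.05 (28.8%, against 6.02% of all), and the median was -0.12. The labels do not say that the numbers pair the samples, and deviations of same-numbered samples correlated at only 0.05 over all tested genes and 0.43 over the set. With scaling by DESeq2 size factors, upper quartiles, total counts or TMM without the set, 0 of its genes passed, 75 to 77 lay below 0 and the median was -0.119 to -0.105. Of single genes, RPL22L1 turned to 0.00202 with upper quartile scaling and 0.0103 with total counts, and ran from -0.321 to 0.26 over the fits that left out 1 library; over the same fits RPL5 ran from -0.19 to 0.0297, RPL7A from -0.168 to 0.0408, RPLP0 from -0.137 to 0.0464 and RPS3A from -0.109 to 0.0289, and the cause was not tested. The mean difference in ribosomal protein peaks and in genes with a peak between mRNA lists, -0.5 in all and as the mean within replicate numbers (the block), was 0 at a peak score of at least 100, where 0 regions in place of 1 were left, and ran from -1 to 0 without 1 library. With 2 samples per group no single value can pass an exact permutation test, whose smallest p is 0.333, and with 1 knockdown input apart from the other the groups cannot be told apart from the libraries.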

Other observations

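Of 13 tested urothelial and epithelial markers, 0 passed the adjusted test, 7 had log2 fold changes below 0 and the median was -0.02. Values below 0 included those of EPCAM, an epithelial adhesion protein (-0.22 ± 0.10 SE), KRT18, a simple epithelial keratin (-0.11 ± 0.08), and CDH1, which encodes E-cadherin (-0.11 ± 0.09). The 2 of smallest p in this list lay above 0. KRT6A, a keratin of activated squamous cells, measured 251 and 231 CPM in knockdown inputs 1 and 2, against 168 and 190 CPM in control inputs 1 and 2 (log2 fold change 0.42 ± 0.09 SE, adjusted p = 0.777, edgeR). TP63, the transcription factor of basal epithelium, measured 285 and 298 CPM in knockdown, against 258 and 232 CPM in control (0.25 ± 0.08, unadjusted p = 0.0117, edgeR). Both were higher in both knockdown inputs than in either control.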
